A study of Mus musculus with 9 samples.

Results

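Type I interferons are secreted alarm proteins that signal through a receptor of paired chains, Ifnar1 and Ifnar2, and the kinases Jak1 and Tyk2. The kinases act on Stat2, which joins Irf9 in the complex ISGF3, and ISGF3 switches on interferon-stimulated genes that carry a short DNA element, the ISRE. Irf7 is both a product of this response and an amplifier of it, since it drives transcription of the interferon genes themselves. In the retina and elsewhere in the nervous system, neurons and glia can both mount the response. The 9 genes described here, Irf7, Irf9, Stat2, Ifit1, Ifit3, Usp18, Isg15, Oasl2 and Bst2, are rows of a table of 50764 genes, taken by gene symbol from each of 9 libraries. They were chosen by differences in their counts between the groups of these same libraries, already known, so those differences are given as a description. Calls from the fit across all genes are counted for them beside the calls over all genes. The calls are counted again under other settings at the end, and support nothing.

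The libraries were made from polyA RNA of cells taken as retinal ganglion cells, which send their axons to the brain through the optic nerve. The mice were adult males of genotype WT, with no exact age in the labels. All groups shared an optic nerve crush 14 days before collection and an adeno-associated virus of serotype AAV2 placed in the vitreous chamber (1.5 µL). The Olig3 group received AAV-Olig3, the Olig2 group AAV-Olig2 and the GFP group AAV-GFP, with 3 libraries each. The title of the series writes the virus as Olig1/2 in 1 place, and the sample labels were followed. Olig3 had 172, 113 and 597 counts in the Olig3 libraries, 0, 5 and 7 in the Olig2 libraries and 13, 0 and 40 in the GFP libraries. Olig2 had 6, 4 and 0 counts with Olig3, 114, 97 and 21 with Olig2 and 0 in each GFP library, and Olig1 had at most 1 count in a library. Each factor was thus higher in every library labelled with it than in any other library. Olig2 and Olig3 are transcription factors of neural progenitors, Olig2 also of the oligodendrocyte lineage, and GFP is the fluorescent protein of the control virus. Fluorescent cells were picked by hand after a pull-down on CD90.2 beads, 10 to 20 for each library by the widest limits in the labels. The labels give neither the promoter of the virus nor the number of animals behind a library, so the spread that p-values are measured against is that between libraries and may be technical. In such picks, fewer cells of a type and less RNA per cell cannot be told apart.

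Library totals ranged from 5355691 to 6979851 counts, and levels are given as CPM, a gene's counts relative to its library's total. A gene with 0 counts may still be present at up to 3 counts, which is 0.430 to 0.560 CPM. The limit covers counting error only, since amplified reads without molecular identifiers are not independent molecules. Markers of the labelled cell type had counts in every group, and so had those of rods. The 12 ganglion cell markers summed to 176 to 427 scaled CPM with Olig3, 230 to 504 with Olig2 and 711 to 1333 with GFP, with Pou4f3 at 0 in the Olig2 group. The 12 rod markers summed to 50800 to 207600, 71660 to 173700 and 40370 to 60480 scaled CPM in the same order of groups. Olig3 library 1 (16188 genes with a count) and Olig3 library 3 (14434) stood apart from the others (18184 to 21338). Malat1, a nuclear noncoding RNA, held 8.54% of the counts in Olig3 library 2 and 11.7 and 6.15% in Olig2 libraries 2 and 3, against 2.65 to 4.14% elsewhere. By chi-square per degree of freedom, Olig3 library 2 was closer to these Olig2 libraries (19.2 and 19.4) than to Olig3 libraries 1 and 3 (86.1 and 113). Without Olig3 library 2, the median log2 change of the 9 genes was -1.62 for Olig3 over GFP and -0.17 for Olig3 over Olig2.

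The ISRE core, written GAAANNGAAA or, on the other strand, TTTCNNTTTC, was looked for on both strands in the 250 bases before the transcription start of RefSeq genes (GRCm38.p6). It was present for 5 of the 8 interferon genes with a promoter entry (62.5%), against 936 of all 27025 genes in the promoter table (3.46%). Usp18 had no entry. The windows of Irf7, Irf9 and Oasl2 did not hold these letters. Both windows of Irf9 (from 55603735 and from 55604329) began after the GENCODE start of the gene (55603571). The bases before that start were thus not searched, and an absence for Irf9 holds only for these windows. The RefSeq start of Irf7 (141266424, minus strand) also lies inside the GENCODE gene, which starts at 141266481. The matches of the other 5 are shown because the ISRE is the element that ISGF3 recognises. Each stretch is given 5′ to 3′ on the strand of the gene, with the fixed letters of the core in capitals:
Stat2 (chr10:128270256-128270305, plus strand): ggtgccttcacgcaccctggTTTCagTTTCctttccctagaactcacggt
Ifit1 (chr19:34640765-34640833, plus strand): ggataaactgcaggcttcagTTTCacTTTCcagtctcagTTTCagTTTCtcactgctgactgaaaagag
Ifit3 (chr19:34583353-34583436, plus strand): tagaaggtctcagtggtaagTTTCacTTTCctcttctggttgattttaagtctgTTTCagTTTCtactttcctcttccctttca
Isg15 (chr4:156200855-156200916, minus strand): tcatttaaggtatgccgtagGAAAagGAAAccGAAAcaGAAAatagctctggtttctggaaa
Bst2 (chr8:71537567-71537622, minus strand): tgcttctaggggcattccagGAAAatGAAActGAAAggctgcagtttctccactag
Isg15 carried 3 overlapping matches that began 78, 72 and 66 bases before the start, and Bst2 2 overlapping ones at 130 and 124 bases. Ifit1 had its pair at 104 and 85 bases and Ifit3 at 156 and 122 bases, both as the reverse letters, and Stat2 had 1 at 222 bases. The RefSeq start used for Stat2 (128270498) lies before the GENCODE start of the gene (128270559). Its match is further from the GENCODE start, and the count of 5 of 8 rests on the RefSeq starts. A match of letters describes the window and does not show that a protein binds there. Among the other genes of the pathway, 11 of 17 interferon genes with an entry held the core (64.7%), as did 14 of 42 induced effectors (33.3%), 1 of 5 interferon regulatory factors, 1 of 11 sensors and adaptors, 1 of 4 feedback genes and 0 of 4 receptor and kinase genes. The share among the 8 genes with an entry is thus close to that among the interferon genes themselves and above the 33.3% of the induced effectors.

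All 9 genes had more RNA on average in the GFP libraries than in those of either factor. Levels are CPM scaled by edgeR's TMM factors. Summed over the 9 genes they came to 371, 226 and 227 in Olig3 libraries 1, 2 and 3, and to 243, 272 and 237 in the Olig2 libraries. The GFP libraries had 809, 519 and 1196. The sums did not overlap between the GFP libraries and the others. The log2 change, as edgeR estimates it, had a median over the 9 genes of -1.74 for Olig3 over GFP and -1.90 for Olig2 over GFP, where the medians of all 15609 genes tested were -0.06 and -0.00047. For Olig3 over Olig2 the median was -0.10, with 5 genes negative and 4 positive, against a median of -0.06 for all genes. Both comparisons with GFP use the same 3 GFP libraries, so that they are not independent.

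**Figure D1:**
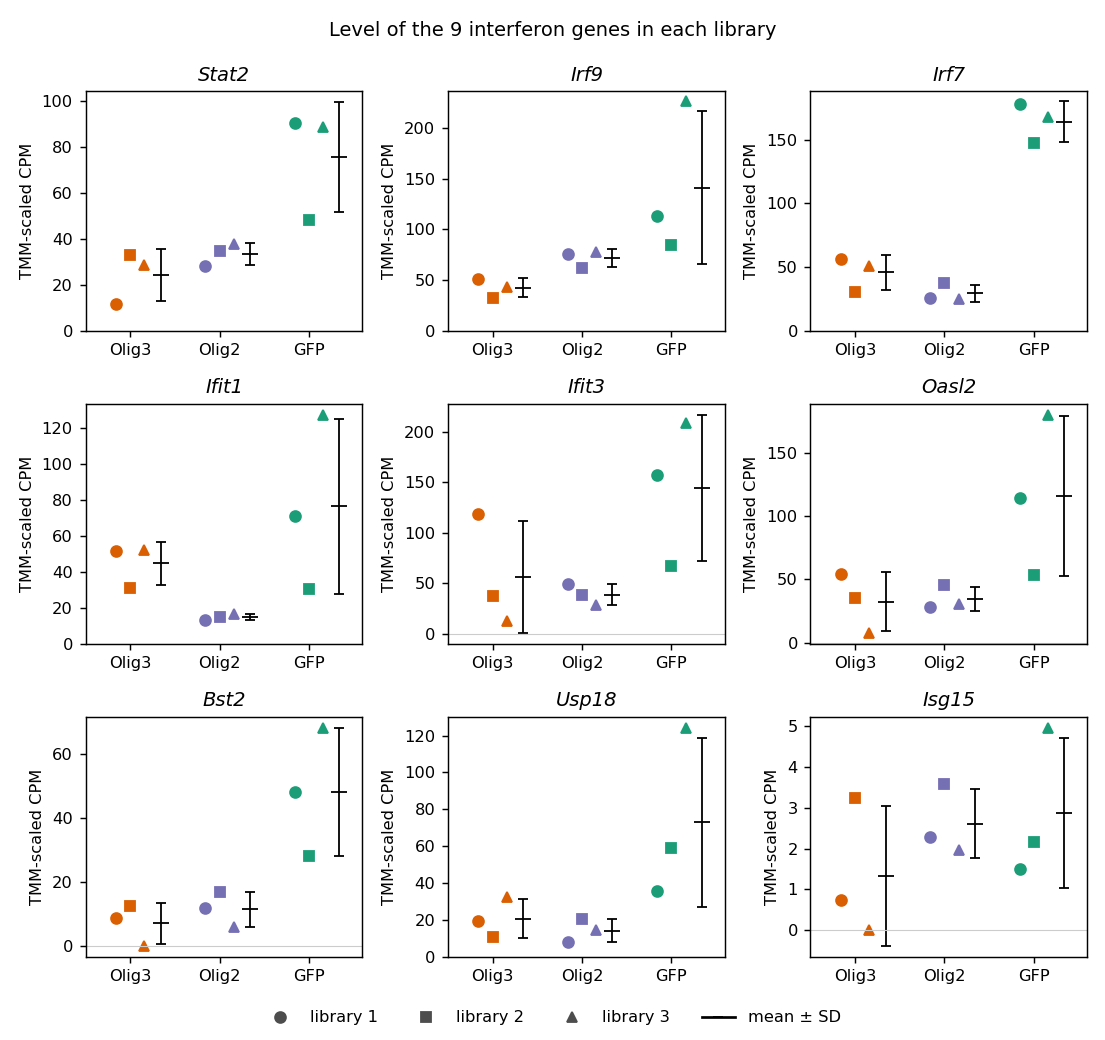
TMM-scaled CPM (vertical axes, linear, different for each gene) of the 9 interferon genes in the Olig3, Olig2 and GFP libraries; each symbol is 1 library and the black bar with whiskers is the mean ± SD of 3. Irf7 sits between 147 and 178 in the GFP libraries, above the other 6 libraries, which lie between 24.9 and 56.2, while Isg15 stays below 5 in every library.

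Stat2 and Irf9 encode the parts of ISGF3 that are particular to type I and type III interferon signalling. Stat2 (chromosome 10, 128270559 to 128292849, mm10) had 11.5, 33.0 and 28.5 scaled CPM in the Olig3 libraries, 28.1, 34.6 and 37.5 in the Olig2 libraries and 90.4, 48.1 and 88.5 in the GFP libraries. Every library of either factor lay below every GFP library, and Olig3 library 1 was the lowest of all. The log2 change was -1.64 (SE 0.419) for Olig3 over GFP and -1.18 (SE 0.413) for Olig2 over GFP. Irf9 (chromosome 14, 55603571 to 55610030) had 51.3, 32.8 and 43.0 scaled CPM with Olig3, 76.2, 61.5 and 77.9 with Olig2 and 113, 84.4 and 227 with GFP. The groups were fully separated here, with Olig3 lowest and GFP highest, although GFP library 3 lay well above the other GFP libraries. The log2 change of Irf9 was -1.74 (SE 0.355) for Olig3 over GFP, -0.97 (SE 0.348) for Olig2 over GFP and -0.76 (SE 0.349) for Olig3 over Olig2.

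Irf7 (chromosome 7, 141262706 to 141266481) encodes the transcription factor that amplifies interferon production. It had 56.2, 30.5 and 50.5 scaled CPM in Olig3 libraries 1, 2 and 3 (381, 122 and 344 counts). The Olig2 libraries had 26.0, 37.2 and 24.9 (182, 156 and 139 counts), and the GFP libraries 178, 147 and 168 (1189, 1158 and 1252 counts). The GFP libraries were close together and far above the others, while the Olig3 and Olig2 libraries overlapped. The means were 45.7 ± 13.5, 29.4 ± 6.80 and 164 ± 15.8 (SD, n = 3 each), which gave a log2 change of -1.84 (SE 0.288) for Olig3 over GFP, -2.49 (SE 0.296) for Olig2 over GFP and 0.64 (SE 0.285) for Olig3 over Olig2. Irf7 was also the steadiest of the 9 genes in the GFP group, where its highest library was 1.21 times its lowest. For the other 8 genes that factor ran from 1.88 for Stat2 to 4.17 for Ifit1. Over 9820 genes with a mean of at least 10 scaled CPM in the GFP group and a count in each of its libraries, the median factor was 1.67, and 10.6% were as even as Irf7 or more so.

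Ifit1 and Ifit3 encode tetratricopeptide proteins, of which Ifit1 binds foreign RNA caps and Ifit3 is its partner in human cells. Ifit1 (chromosome 19, 34640871 to 34650009) had 51.5, 31.0 and 51.9 scaled CPM with Olig3, 13.4, 14.8 and 16.3 with Olig2 and 70.9, 30.6 and 128 with GFP. The Olig2 libraries were tightly grouped below all others, whereas the Olig3 libraries lay within the range of the GFP libraries. Its log2 change was -0.77 (SE 0.449) for Olig3 over GFP and -2.36 (SE 0.473) for Olig2 over GFP. With 1.60 (SE 0.463) for Olig3 over Olig2, Ifit1 was the only one of the 9 genes higher in every Olig3 library than in every Olig2 library. Ifit3 (chromosome 19, 34583531 to 34588731) had 118, 37.0 and 13.1 scaled CPM with Olig3, 49.2, 38.2 and 28.4 with Olig2 and 157, 66.9 and 209 with GFP. Olig3 library 1 lay among the GFP libraries and Olig3 library 3 lay below every Olig2 library, so that the factor between the highest and the lowest Olig3 library was 9.06. Of the 50-base stretches in Ifit3 transcripts, 51.2% also occur in transcripts of the neighbouring copy Ifit3b, so the split of reads between the pair is uncertain. Ifit3b itself had 27.7, 15.0 and 0.147 scaled CPM with Olig3, 6.99, 17.6 and 6.46 with Olig2 and 43.3, 28.3 and 74.0 with GFP. Both copies were thus lowest in Olig3 library 3 and highest in GFP library 3. For Ifit1, 7.13% of the stretches were shared with Ifit1bl1 or Ifit1bl2, which had 0 to 18 counts in a library.

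Oasl2 encodes a protein of the oligoadenylate synthetase family, and Bst2 encodes tetherin, which holds budding virus particles at the cell membrane. Oasl2 (chromosome 5, 114896936 to 114912234) had 54.0, 35.3 and 7.78 scaled CPM with Olig3, 28.1, 45.5 and 30.3 with Olig2 and 115, 53.3 and 180 with GFP. The Olig2 libraries all lay below the GFP libraries, and Olig3 library 1 was just above GFP library 2. The log2 change of Oasl2 was -1.84 (SE 0.601) for Olig3 over GFP and -1.74 (SE 0.599) for Olig2 over GFP. Bst2 (chromosome 8, 71534255 to 71537456) had 8.70, 12.5 and 0 scaled CPM with Olig3, 11.8, 16.7 and 5.74 with Olig2 and 48.04, 28.1 and 68.2 with GFP. It had 0 counts in Olig3 library 3, which allows up to 0.508 CPM before TMM scaling, and every library of either factor was below every GFP library. The means of Bst2 were 7.07 ± 6.41, 11.4 ± 5.49 and 48.1 ± 20.1 (SD, n = 3 each), with log2 changes of -2.78 (SE 1.07) for Olig3 over GFP and -2.07 (SE 1.04) for Olig2 over GFP.

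Usp18 and Isg15 belong to the feedback arm. Isg15 is a small ubiquitin-like protein that is joined to other proteins, and Usp18 removes it again and also blocks signalling at Ifnar2. Usp18 (chromosome 6, 121245906 to 121270917) had 19.0, 10.8 and 32.1 scaled CPM with Olig3, 7.71, 20.3 and 14.4 with Olig2 and 35.5, 58.9 and 124 with GFP. The GFP libraries were the highest 3, but GFP library 1 lay only just above Olig3 library 3. The log2 change of Usp18 was -1.81 (SE 0.563) for Olig3 over GFP and -2.37 (SE 0.577) for Olig2 over GFP. A noncoding gene on the opposite strand, Gm44148, covers 4.44% of the exonic length of Usp18, and with no stated strand setting reads in that overlap cannot be assigned. Gm44148 had 6.19, 3.75 and 10.7 scaled CPM with Olig3, 0.143, 4.53 and 5.20 with Olig2 and 10.2, 20.7 and 37.6 with GFP, the same order of libraries within the GFP and Olig3 groups as Usp18. Isg15 (chromosome 4, 156199424 to 156200818) was close to the detection limit, with 5, 13 and 0 counts in the Olig3 libraries, 16, 15 and 11 in the Olig2 libraries and 10, 17 and 37 in the GFP libraries. Its libraries overlapped between all groups, and the log2 change was -1.13 (SE 1.52) for Olig3 over GFP and -0.14 (SE 1.49) for Olig2 over GFP. A difference in Isg15 was not detectable in these libraries. Its log2 change turned to 0.51 for Olig2 over GFP without GFP library 3 and to 0.032 without Olig2 library 3.

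**Figure D2:**
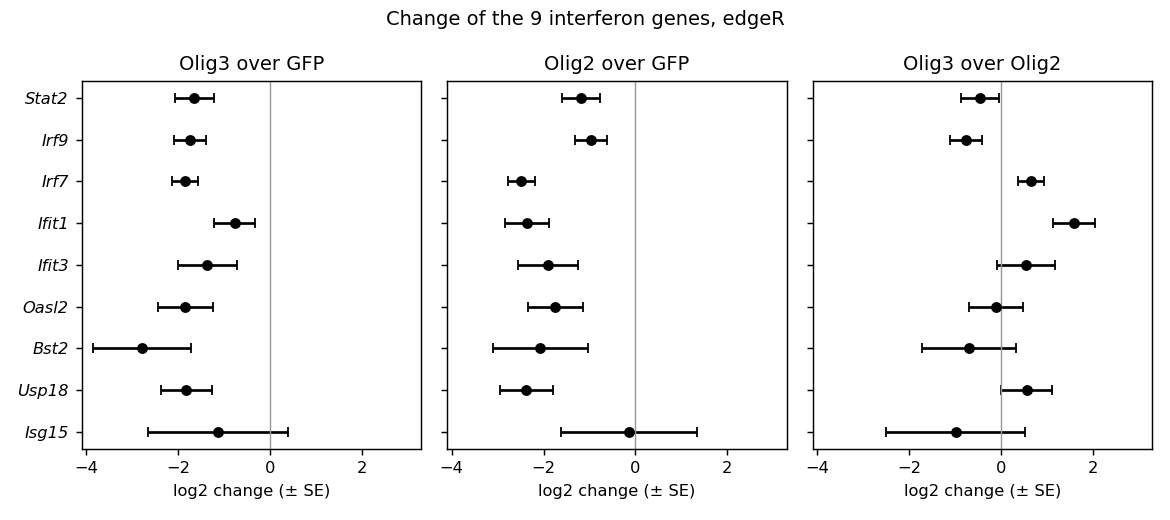
The edgeR log2 change (horizontal axes) with its SE for the 9 interferon genes in Olig3 over GFP, Olig2 over GFP and Olig3 over Olig2; the vertical line marks no change. The points against GFP lie left of the line for all 9 genes, from -2.78 to -0.77 for Olig3 and from -2.49 to -0.14 for Olig2, and they lie on both sides for Olig3 over Olig2.

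Levels per kilobase rest on all annotated exons of a gene, and for Irf7 these form 1 block of 3776 bases that spans the whole gene, introns included, which lowers its level on this scale. For Irf9 they come to 5386 bases in 6 blocks, which fill most of the gene (55603571 to 55610030). Per kilobase of annotated exon, Ifit3 was the most abundant of the 9 genes in each group, with means of 32.2 ± 31.6 scaled CPM per kilobase with Olig3, 22.1 ± 5.99 with Olig2 and 82.8 ± 41.3 with GFP (SD, n = 3 each). In the GFP group Bst2 (53.2 ± 22.2), Irf7 (43.5 ± 4.17) and Ifit1 (28.7 ± 18.3) came next on this scale. These levels overlapped within their spread, so that their order is not fixed, and the place of Irf7 also depends on its length, as does that of Irf9. Isg15 was last in all groups, at 1.76 ± 2.26 with Olig3, 3.45 ± 1.13 with Olig2 and 3.80 ± 2.43 with GFP per kilobase. In the Olig3 group Ifit1 (16.9 ± 4.50) and Irf7 (12.1 ± 3.57) followed Ifit3, and in the Olig2 group Irf9 (13.3 ± 1.67) and Bst2 (12.7 ± 6.08) did.

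By counts, all 9 genes passed the filter on low counts, and 1, Irf7, was past an adjusted p of 0.05 in edgeR's quasi-likelihood test in each comparison with GFP, where it was lower. Over all genes tested, 0.109% were lower and 0.0961% higher past the threshold for Olig3 over GFP, and 0.0128% lower and 0.0384% higher for Olig2 over GFP. The libraries did not overlap and were lower for 5 of the 9 genes with Olig3, where 10.0% of all genes tested did so and 7.18% were higher in the same way, and for 8 of the 9 with Olig2, where 8.35% were lower and 8.47% higher. Between Olig3 and Olig2 the libraries did not overlap for Irf9, which was lower (8.69% of all genes tested), and for Ifit1, which was higher (4.41%). Between Olig3 and Olig2, 0 of the 9 passed by edgeR (0.0384% of all genes tested were past the threshold, all lower). DESeq2 and limma-voom also called 0 there, against 0.525% and 0.00641% of all genes tested. At an unadjusted p below 0.05 by edgeR, Irf7 and Ifit1 (2 of the 9) were higher in that comparison. Of all genes tested, 2.07% were higher and 3.05% lower at that level. Against GFP, 6 of the 9 were lower at that level with Olig3 (6.37% of all genes lower, 5.76% higher). With Olig2 it was 7 (2.08% lower, 2.61% higher). Since the genes were picked for these differences, nothing is read from these counts. The count of 1 for Olig3 over GFP was 0 without any one of 8 libraries, all except Olig3 library 2, and 0 with both Olig3 libraries of few detected genes left out. The count for Olig2 over GFP was 0 without GFP library 1, GFP library 3, Olig2 library 1 or Olig2 library 3. The log2 change of Irf7 ran from -2.41 to -1.62 for Olig3 over GFP and from -2.87 to -2.38 for Olig2 over GFP over 20 alternative settings.

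The remaining pathway was followed through 99 further genes in 6 lists by role, chosen with earlier results of these data known. Of the 18 genes of interferon alpha, beta, epsilon, kappa and zeta, 0 had a count in any of the 9 libraries. That allows up to 0.560 CPM for each, before TMM scaling. The other lists held 64 tested genes. In edgeR's test 0 of these 64 passed over all genes in any of the 3 comparisons, where 0.205% of all genes tested passed for Olig3 over GFP, 0.0513% for Olig2 over GFP and 0.0384% for Olig3 over Olig2. At an unadjusted p below 0.05 there were 0 higher and 15 lower for Olig3 over GFP, 1 higher and 9 lower for Olig2 over GFP, and 0 higher and 9 lower for Olig3 over Olig2. Among all genes tested, 5.76% were higher and 6.37% lower at that level for Olig3 over GFP, 2.61 and 2.08% for Olig2 over GFP, and 2.07 and 3.05% for Olig3 over Olig2. The median log2 change of the 64 genes was -1.30, -0.14 and -0.66 for Olig3 over GFP, Olig2 over GFP and Olig3 over Olig2, and that of all genes tested was -0.06, -0.00047 and -0.06. DESeq2 called 6 of the 64 lower for Olig3 over GFP (3.22% of all genes were called in either direction), 1 higher for Olig2 over GFP (0.577%) and 3 lower for Olig3 over Olig2 (0.525%). The limma-voom fit called 0 in each, against 0.5%, 0.0384% and 0.00641% of all genes in the same order. Without Olig3 library 2, edgeR called 8 of 68 tested lower for Olig3 over GFP. Of all 16926 genes tested in that fit, 2.98% were called in either direction, 106 higher and 399 lower. For Olig3 over Olig2 it called 4 of the pathway genes lower, where 0.945% of all genes were called in either direction.

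At the receptor end of the pathway, 0 of 5 tested receptor and kinase genes were at an unadjusted p below 0.05 by edgeR for either factor over GFP. Ifnar1, a chain of the interferon receptor, had 1.03, 15.3 and 0.293 scaled CPM with Olig3, 16.7, 17.9 and 19.7 with Olig2 and 18.6, 31.0 and 21.7 with GFP. Ifnar1 was thus nearly undetected in the same Olig3 libraries, 1 and 3, in which few genes had counts (log2 change -2.13 for Olig3 over GFP, SE 1.06, edgeR adjusted p = 0.456). Its partner Ifnar2 averaged 1.66 ± 1.62, 5.12 ± 0.619 and 11.6 ± 8.44 scaled CPM in the Olig3, Olig2 and GFP groups (edgeR adjusted p = 0.445 for Olig3 over GFP and 1 for Olig2 over GFP). The kinase Jak1 averaged 75.8 ± 29.6, 88.5 ± 25.6 and 80.1 ± 12.4, with edgeR adjusted p of 0.949 and 1. Of the other interferon regulatory factors, Irf2 averaged 9.24 ± 7.95, 19.8 ± 5.41 and 12.6 ± 1.76 scaled CPM, and Irf5 13.3 ± 6.04, 13.9 ± 1.03 and 11.1 ± 0.691. Irf2 and Irf5 were higher in every Olig2 library than in every GFP library, as were 8.47% of all genes tested. Their log2 changes for Olig2 over GFP were 0.65 (SE 0.716) and 0.32 (SE 0.619), each smaller than its SE (edgeR adjusted p = 1 for both). That is the opposite direction to Irf7. Irf1, a factor induced by interferons of type I and II, had 18.4, 3.75 and 10.1 scaled CPM with Olig3, 39.0, 31.5 and 35.7 with Olig2 and 33.4, 26.8 and 29.3 with GFP. All 3 Olig3 libraries were below the others for Irf1 (log2 change -1.46 for Olig3 over GFP, SE 0.528, edgeR adjusted p = 0.311).

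Sensors, effectors and feedback genes lay on both sides of the GFP level. Ddx58, which encodes the cytosolic RNA sensor RIG-I, had 9.14, 9.75 and 6.31 scaled CPM with Olig3, 10.8, 11.4 and 3.77 with Olig2 and 15.4, 26.0 and 39.0 with GFP. All GFP libraries were above the others for Ddx58 (edgeR adjusted p = 0.342 for Olig3 over GFP and 0.93 for Olig2 over GFP). Myd88, an adaptor of Toll-like receptors, averaged 8.64 ± 8.70, 13.6 ± 4.26 and 37.2 ± 7.55 scaled CPM (edgeR adjusted p = 0.465 and 1), and its libraries did not overlap with GFP either. Traf3, a ubiquitin ligase downstream of these adaptors, averaged 17.2 ± 5.38, 17.0 ± 1.68 and 9.62 ± 2.95 (edgeR adjusted p = 0.604 and 1) and so lay on the other side. The 39 tested induced effectors had a median log2 change of -1.73 for Olig3 over GFP, with 34 negative, and -0.72 for Olig2 over GFP, with 28 negative, where 8263 and 7809 of all 15609 genes tested were negative. Rtp4, an interferon-induced chaperone of membrane receptors, averaged 13.7 ± 4.11, 20.5 ± 6.23 and 54.5 ± 22.2 scaled CPM (edgeR adjusted p = 0.127 and 0.71). Parp12, a mono-ADP-ribosyltransferase, averaged 16.2 ± 6.63, 11.2 ± 0.292 and 37.7 ± 20.1 (edgeR adjusted p = 0.377 and 0.665). Epsti1 lay on the other side, with 0, 1 and 0 counts in the Olig3 libraries, 394, 13 and 109 in the Olig2 libraries and 0, 3 and 0 in the GFP libraries. Nearly all its counts thus came from the Olig2 libraries (edgeR adjusted p = 0.368 for Olig2 over GFP). B and plasma cell markers summed to 169 to 364 scaled CPM in those libraries, against 29.05 to 40.4 with Olig3 and 9.73 to 24.6 with GFP. T cell markers summed to 0 to 0.295 with Olig3, 19.6 to 78.5 with Olig2 and 0 to 24.5 with GFP. The part of those cells in the level of Epsti1 was not tested. Among feedback genes, Socs1, which inhibits Jak kinases, had 0 counts in each Olig3 library, 31, 22 and 43 in the Olig2 libraries and 67, 19 and 116 in the GFP libraries (edgeR adjusted p = 0.0858 for Olig3 over GFP and 1 for Olig2 over GFP). The phosphatase genes Ptpn2 and Ptpn6 had edgeR adjusted p of 0.61 and 0.789 for Olig3 over GFP and 1 for Olig2 over GFP.

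**Figure D3:**
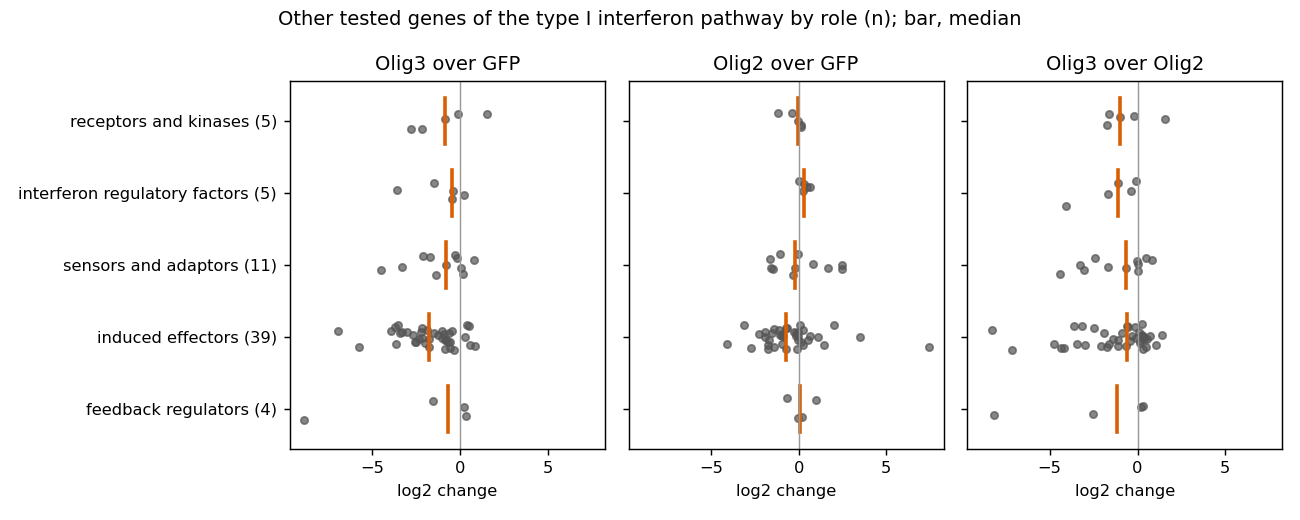
The edgeR log2 change (horizontal axes) of the 64 other tested genes of the pathway by role, with the number of genes in brackets, in Olig3 over GFP, Olig2 over GFP and Olig3 over Olig2; each point is 1 gene and the bar is the median of the role. Induced effectors have medians of -1.73, -0.72 and -0.59; the vertical spread within a role has no meaning.

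The 6 genes whose profiles over the 9 libraries were most like that of Irf7 were not from the pathway. Likeness was the root mean square difference in log2 CPM, each gene centred on its own mean, among 9081 genes with at least 10 scaled CPM on average. The nearest were E2f6, a repressor of the E2F family (0.427), Cd63, a tetraspanin of late endosomes (0.438), Tmem267 (0.474), Sdcbp, the adaptor protein syntenin (0.481), Fgfbp3, a carrier of fibroblast growth factors (0.528), and Id3, an inhibitor of basic helix-loop-helix factors (0.538). Among the other members of the set, Usp18 ranked 10 (0.567), Ifit1 47 (0.722), Irf9 156 (0.825) and Stat2 237 (0.862). Ifit3 ranked 311 (0.894) and Oasl2 565 (0.952). Bst2, which had 0 counts in Olig3 library 3, ranked 8224 (1.84). Isg15 was below the limit of 10 scaled CPM and was not ranked. E2f6, the closest, had 40.3, 26.0 and 40.8 scaled CPM with Olig3, 18.6, 23.1 and 26.4 with Olig2 and 85.0, 118 and 63.1 with GFP.

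Markers of other cell types also differed between the groups, and their part in the levels of the 9 genes was not tested. The 4 astrocyte markers summed to 1.61 to 37.8 scaled CPM with Olig3, 14.7 to 31.0 with Olig2 and 118 to 199 with GFP, with a count for all 4 in the Olig3 and GFP groups and for 3 in the Olig2 group, where Pax2 was at 0. In these markers, as in the ganglion cell markers, every GFP library was above all others. The 13 microglia and macrophage markers summed to 105 to 462 with Olig3, 71.8 to 434 with Olig2 and 48.8 to 272 with GFP, so they were no higher in the GFP libraries, although 12 of the 13 had a count there, with Tmem119 at 0. For plasmacytoid dendritic cells, which make interferon, 4, 5 and 3 of 6 markers had a count in the Olig3, Olig2 and GFP groups, with sums of 9.54 to 22.7, 8.11 to 15.1 and 4.02 to 6.35. Klk1 was at 0 throughout, Ly6d with Olig3 and GFP, and Cd209d with GFP. The 8 Muller glia markers summed to 562 to 2480, 2010 to 3637 and 1718 to 4220, all with a count, and the 6 endothelial ones to 52.5 to 91.1, 61.0 to 93.3 and 45.8 to 250, with 6, 5 and 4 detected, Cdh5 being at 0 with Olig2 and both Pecam1 and Cdh5 with GFP. Other lists also separated groups: the 8 bipolar cell markers summed to 1183 to 1467 with Olig3, 1096 to 1519 with Olig2 and 666 to 711 with GFP, and the 8 cone markers to 2640 to 6352, 618 to 2290 and 435 to 1158. The 7 lens markers in the table summed to 0.440 to 457, 2.71 to 5.20 and 77.4 to 3353 in the same order of groups. Markers of T cells summed to 0 to 0.295, 19.6 to 78.5 and 0 to 24.5, of granulocytes to 0 to 1.75, 0 to 12.02 and 0 to 24.6, and of amacrine cells to 371 to 759, 534 to 602 and 203 to 578.

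**Figure D4:**
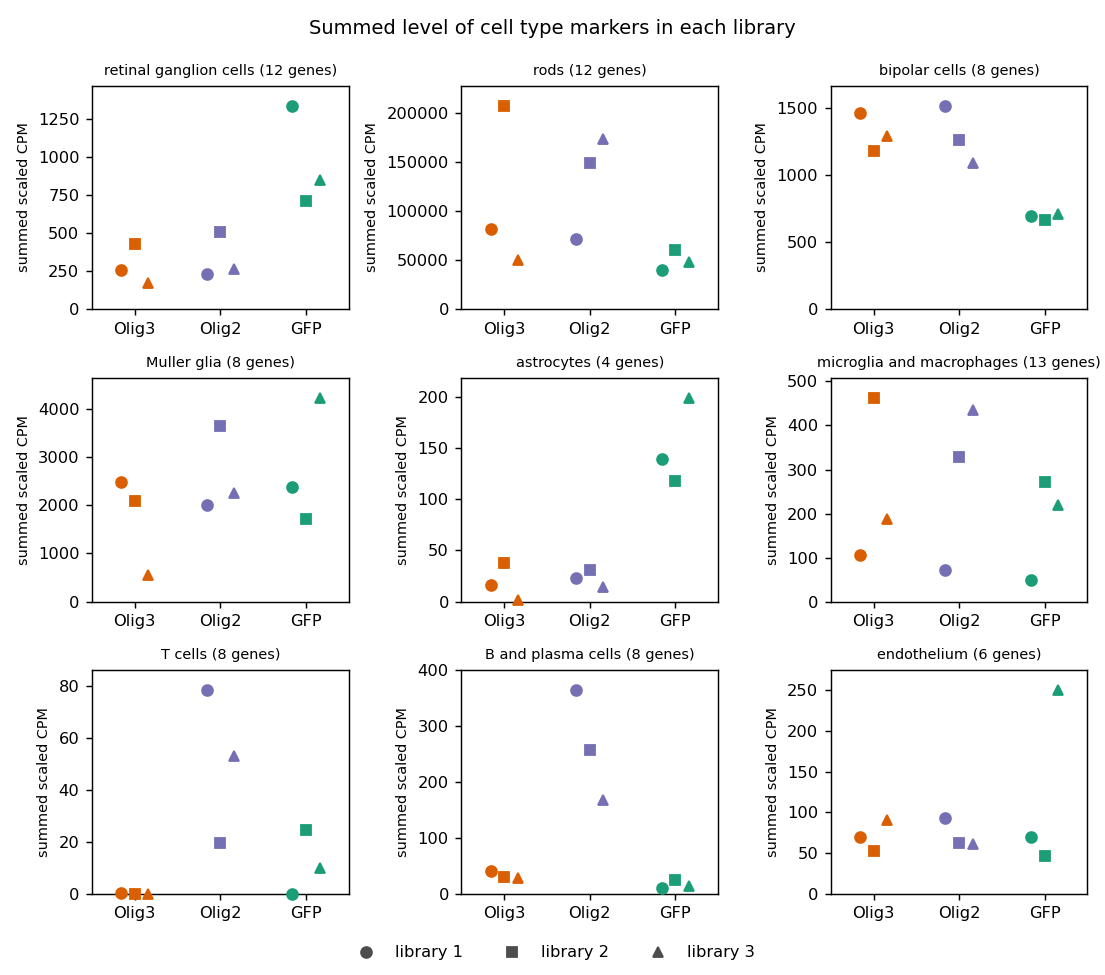
Summed TMM-scaled CPM (vertical axes, linear, from 0) of markers of 9 cell types in the Olig3, Olig2 and GFP libraries, 1 symbol for each library. Ganglion cell and astrocyte markers are highest in the GFP libraries, at 711 to 1333 and 118 to 199, while microglia and macrophage markers overlap between all groups.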

How the data were processed

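The authors deposited raw read counts, whole numbers for each gene, in 1 table of 9 libraries. The submitters' processing notes name FastQC, HISAT2, HTSeq and the build mm10, with no version, filter or strand setting. All 50764 identifiers matched GENCODE M21, from which coordinates (1-based) and exonic lengths came, with 89 lacking a symbol in the table. Promoters are RefSeq's (GRCm38.p6). The test was that of edgeR 4.0.16, run in R 4.3.3 (TMM factors, filterByExpr, 15609 genes, 1 model of group means over all libraries, quasi-likelihood F test, Benjamini-Hochberg adjustment over all genes, threshold 0.05), and the SE is the log2 change over the root of F. The fit was tested on simulated data. Members and lists were chosen with earlier results of these data known. From each role list the text names genes past the threshold or, with none, the 3 with the smallest p for Olig2 over GFP, and the 6 genes most like Irf7, predicted and clone symbols left out. Alternatives were RLE, upper-quartile and no scaling, other low-count filters, DESeq2 1.42.0, limma-voom (limma 3.58.1), a replicate block, fits of pairs of groups, and leaving libraries out. The lists' symbols Mb21d1 and Tmem173 were read as Cgas and Sting1. For 1 listed gene no value of its own is reported here. No pair of libraries agreed within sampling noise (chi-square per degree of freedom at least 29.5 within groups and 19.2 across them), and each counted as 1 sample.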

Additional observations from a re-analysis of the deposited data

How the results depend on the processing

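The median log2 change of the 9 genes stayed negative against GFP in all 20 alternatives, from -1.94 to -1.22 for Olig3 over GFP and from -2.24 to -1.54 for Olig2 over GFP; with each library left out it ran from -1.91 to -1.22 for Olig3, the least without GFP library 3. For Olig3 over Olig2 it changed sign, to 0.023 without scaling factors, 0.20 with genes of at least 10 CPM in 3 libraries, 0.034 without the 2 Olig3 libraries of few detected genes and 0.13 without the 3 libraries richest in Malat1, and ran from -0.64 to 0.14 with each library left out in turn. The cause was not tested. Counts past the threshold moved much more. With each library left out they ran from 0 to 505 of all genes for Olig3 over GFP, from 0 to 24 for Olig2 over GFP and from 2 to 160 for Olig3 over Olig2, from 0 to 1 of the 9 genes for either factor over GFP, and from 0 to 8 and 0 to 4 of the pathway genes for Olig3 over GFP and over Olig2.

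For Olig3 over GFP (32 genes, 1 of the 9 and 0 of the pathway), no low-count filter gave 556, 7 and 7, DESeq2 502, 3 and 6, limma-voom 78 genes, the fit of the pair 0 and 0, without the 2 Olig3 libraries of few detected genes 0 and 0, without the 3 Malat1-rich libraries 20 and 0, and no scaling factors 0 of the 9. For Olig2 over GFP (8, 1 and 0), no scaling factors gave 0 and 0, no low-count filter 176, 5 and 3, DESeq2 90, 3 and 1, the fit of the pair 23 genes, without the 2 Olig3 libraries 41 genes and 1 of the pathway, and without the 3 Malat1-rich libraries 5 and 0. For Olig3 over Olig2 (6, 0 and 0), no low-count filter gave 140, 1 and 3, DESeq2 82 genes and 3 of the pathway, limma-voom 1 gene, the fit of the pair 2 and without the 2 Olig3 libraries 0. In fits that leave a group 1 library, that library is assumed to vary like the other groups. The fit with no low-count filter tested 29429 genes, against 15609 in the main fit.

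Correlations of deviations ran from -0.0634 to 0.113 between libraries of equal replicate number and from -0.115 to 0.0747 between the others. The highest was that of Olig2 library 2 with Olig3 library 2, so whether equal numbers mark paired samples was not settled. With the replicate number as a block 0 genes and 0 of the 9 passed for Olig3 over GFP. For Olig2 over GFP 10 genes and 1 of the 9 did, and for Olig3 over Olig2 8 genes and 0 of the 9. Olig3 over GFP had 34 genes with RLE, 27 with upper-quartile scaling and 42 with at least 10 CPM in 3 libraries. No scaling factors gave it 30 (1 higher, 29 lower, against 15 and 17 in the main fit). Olig2 over GFP had 6 genes with limma-voom and with at least 10 CPM.

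Single genes changed sign as follows. Isg15 was 0.51 and 0.032 for Olig2 over GFP without GFP library 3 and Olig2 library 3, within -0.44 to 0.51 over all libraries left out, and without the 2 Olig3 libraries 0.19 for Olig3 over GFP and 0.32 for Olig3 over Olig2. Over Olig2, without those libraries, Ifit3 was -0.055, Usp18 -0.37, Oasl2 0.034 and Bst2 0.14. Oasl2 was 0.023 without scaling factors, 0.13 without the 3 Malat1-rich libraries and -0.70 to 0.37 with each library left out, and Ifit3 -0.64 to 1.01. Isg15 had 0 to 37 counts in a library.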
